A study of Homo sapiens
Mus musculus with 6 samples.

Results

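The genes described here are 26 named genes of cholesterol synthesis and of its control by sterol regulatory element-binding proteins (SREBPs), read in tumour cells and in host tissue of the same xenografts. They were chosen by name as pathway genes, with earlier results of these data known, and were matched by symbol to 1 gene table per species. The shares of all tested genes set beside their counts are therefore description and not a test. All 26 were found among the 63652 genes of the human table, and 25 among the 42979 genes of the mouse table, where no gene had the symbol Msmo1. The tumours were 3 HT29 xenografts overexpressing the mouse laminin alpha 1 chain and 3 control HT29 xenografts, grown under the skin of nude mice for 4 weeks. HT29 is an established human colorectal adenocarcinoma line, and nude mice lack a thymus and with it most T cells. The laminin alpha 1 chain is a subunit of basement membrane laminin. The labels name neither the construct, nor whether the laminin cells were a clone or a pool, nor what the control cells carried.

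Cells build cholesterol from acetyl-CoA. The mevalonate arm makes isoprenoid units and joins them to farnesyl diphosphate, from which squalene synthase commits the flow to sterols, and the later enzymes close, demethylate and reduce the ring system. When membranes of the endoplasmic reticulum hold little sterol, the escort protein SCAP carries SREBPs to the Golgi, where proteases free the part that switches on these genes. INSIG proteins hold SCAP back when sterol is plentiful. SREBF2 codes for the SREBP that mainly drives cholesterol genes, while the main products of SREBF1 drive fatty acid synthesis, a large activity of adipocytes and sebaceous glands.

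Each table gives 1 value per group and gene and no value for a single tumour, so no spread between tumours can be set beside any level here, and calls rest on the authors' p-values (human genes, adjusted here) or q-values (mouse genes). Levels are in ppm, a gene's parts per 1000000 of the total signal in its table. The deposited values are not scaled for gene length, so levels are compared between groups for 1 gene and not between genes. The most frequent low values, each read here as a single read in a single tumour, lay between 0.0120 and 0.0137 ppm in the human table. In the mouse table they lay between 0.103 and 0.254 ppm in laminin tumours and between 0.152 and 0.155 ppm in control tumours. A host gene therefore rests on far fewer reads than a tumour cell gene at the same ppm. Mouse Lama1, the overexpressed gene, had 1077 ppm in laminin tumours and 4.75 ppm in control tumours (q = 0.00238, authors' deposited table). All 8 colorectal epithelial markers were above 0 in both groups of the human table. Of 7 epithelial markers in the mouse table, 3 were at 0 in laminin tumours (Cdx2, Krt8 and Krt18) and 2 in control tumours (Cdx2 and Vil1), and the 7 summed to 6.05 ppm in laminin tumours and 55.6 ppm in control tumours. The 14 stromal and leukocyte markers in the human table summed to 48.1 ppm in laminin tumours and 22.0 ppm in control tumours, of which CD68 alone held 41.4 ppm in laminin tumours and 18.9 ppm in control tumours.

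In the tumour cells, 4 sterol enzyme genes and the feedback gene INSIG1 fell by small folds, and none of the 26 genes rose. All 26 were tested, and 5 fell at an adjusted p under 0.05 (authors' p-values, adjusted by the Benjamini-Hochberg method over all 25838 tested genes). They were SQLE, LSS, CYP51A1, EBP and INSIG1, each between 1.29-fold and 1.39-fold lower in laminin tumours. Over all tested human genes, 2.45% were called lower and 5.63% higher, and among the tested genes at 10 ppm or more, a level that all 26 reach, 4.12% were called lower. At an unadjusted p under 0.05, 12 of the 26 were lower and 1 was higher, against 6.07% and 10.1% of all tested genes. The ratio of laminin over control was below 1 for 23 of the 26, against 49.6% of all tested genes. The median log2 ratio was -0.28, beside -0.0027 over all tested genes above 0 in both groups. Bulk RNA cannot separate fewer cells of a type from less RNA per cell, which holds for every result below.

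**Figure D1:**
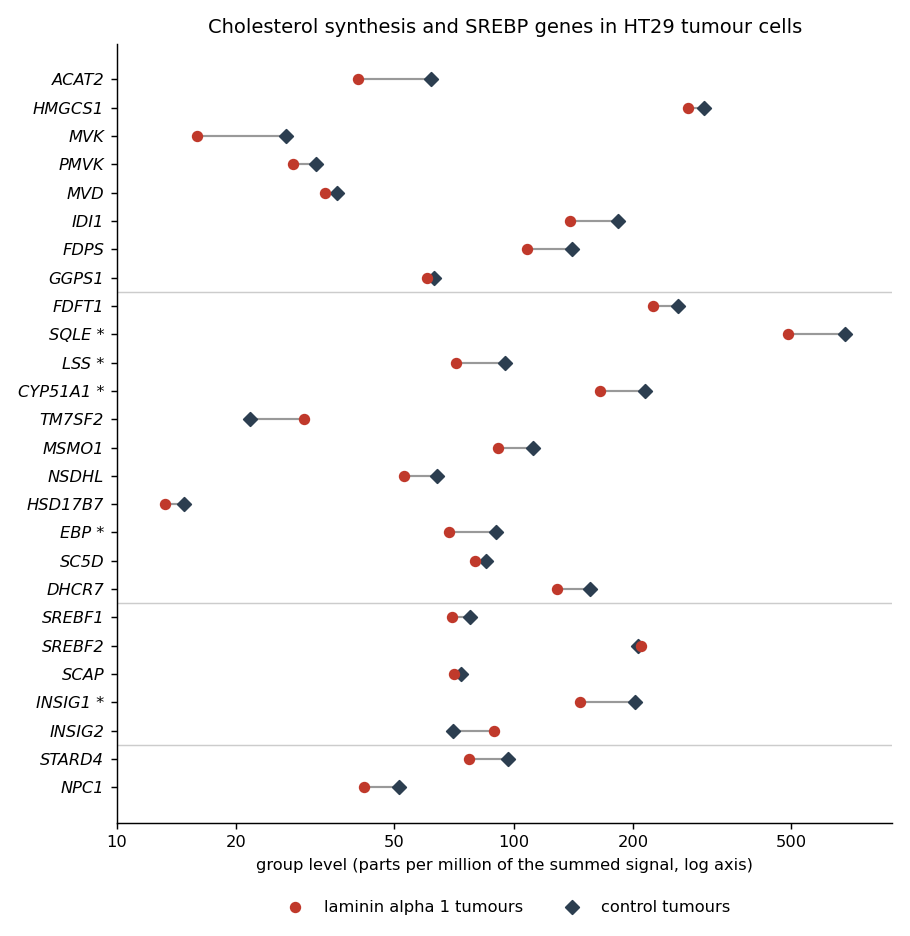
Levels of the 26 genes in the human table, in ppm on a log axis, with laminin alpha 1 tumours as red circles and control tumours as dark diamonds, 1 group value each, and an asterisk at the 5 genes past an adjusted p of 0.05. Grey lines part the mevalonate arm, the squalene and sterol arm, SREBP control and sterol transport. The red circle lies to the left of the diamond for all genes but TM7SF2, SREBF2 and INSIG2, and the gaps are small.

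Along the mevalonate arm, all 8 enzymes had lower values in laminin tumours and none passed the test. Their median log2 ratio was -0.28. ACAT2, the cytosolic thiolase that joins acetyl units, had 40.6 ppm in laminin tumours and 61.7 ppm in control tumours. Its reads are uncertain, because its locus in the table overlaps that of TCP1 and no step that keeps the strand is stated. The loci of 16 of the 26 human genes, LSS and CYP51A1 of the 5 called among them, overlap another gene with signal, so that their values carry the same limit. HMGCS1, which makes HMG-CoA, had 276 ppm in laminin tumours and 301 ppm in control tumours, a difference of 1.09-fold. The lowest ratio of the 26 was that of MVK, mevalonate kinase, at 16.0 ppm in laminin tumours and 26.6 ppm in control tumours. MVK was 1.67-fold lower and missed the threshold, with p = 0.00545 in the authors' deposited table and an adjusted p of 0.0624. The MVK locus overlaps that of MMAB. The next kinase gene PMVK had 27.8 ppm against 31.7 ppm in controls, and the decarboxylase gene MVD 33.5 ppm against 36.0 ppm. IDI1, the isomerase of isopentenyl diphosphate, was at 138 ppm in laminin tumours and 183 ppm in control tumours. FDPS, which makes farnesyl diphosphate, was at 108 ppm in laminin tumours and 140.4 ppm in control tumours. IDI1 and FDPS were thus 1.32-fold and 1.30-fold lower, with adjusted p-values of 0.132 and 0.203. The human RefSeq table (GRCh38.p14) names 3 pseudogenes of IDI1 and 10 of FDPS, and how the authors placed reads shared with such copies is not given in the sources used here. GGPS1, which extends the chain for protein prenylation and so branches off before squalene, had 60.3 ppm in laminin tumours and 63.0 ppm in control tumours.

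Past farnesyl diphosphate, 4 of 11 genes of the tumour cells fell and none rose, with a median log2 ratio of -0.28. FDFT1, squalene synthase, had 225 ppm in laminin tumours and 260 ppm in control tumours and did not pass, at an adjusted p of 0.438. SQLE, the squalene epoxidase and a control point of the sterol arm, had 491 ppm in laminin tumours and 683 ppm in control tumours. It was 1.39-fold lower, the largest fold among the 5 called genes, with p = 0.00015 in the authors' deposited table and an adjusted p of 0.00327. The steps just after it also carried calls. LSS, which closes the ring to give lanosterol, had 71.4 ppm in laminin tumours and 95.2 ppm in control tumours, with p = 0.0019 in the authors' deposited table and an adjusted p of 0.0273. CYP51A1, the lanosterol demethylase, had 165 ppm in laminin tumours and 214 ppm in control tumours, with p = 0.0033 in the authors' deposited table and an adjusted p of 0.0422. RefSeq names 3 pseudogenes of CYP51A1, so that its value is uncertain where reads are shared.

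The later sterol steps were lower by less, apart from the isomerase gene EBP and the reductase gene TM7SF2. EBP, which shifts a double bond of the sterol ring, had 68.6 ppm in laminin tumours and 90.3 ppm in control tumours, with p = 0.00315 in the authors' deposited table and an adjusted p of 0.0407. MSMO1, the methylsterol oxidase, had 91.2 ppm against 112 ppm in controls, and its partner NSDHL 53.1 ppm against 64.1 ppm. DHCR7, the reductase that ends a branch of the pathway, had 128 ppm in laminin tumours and 156 ppm in control tumours. MSMO1, NSDHL and DHCR7 had unadjusted p-values of 0.0260, 0.0450 and 0.0308 in the authors' deposited table and did not pass after adjustment, at 0.201, 0.289 and 0.226. SC5D, a sterol desaturase, and HSD17B7, a sterol ketoreductase with 2 named pseudogenes, were 1.07-fold and 1.11-fold lower without passing. TM7SF2, a sterol reductase, stood apart at 29.6 ppm in laminin tumours and 21.6 ppm in control tumours, with an adjusted p of 0.666. Its locus overlaps those of VPS51 and ZFPL1.

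Among the genes that control the pathway in the tumour cells, only INSIG1 passed the test. INSIG1, itself an SREBP target, had 147 ppm in laminin tumours and 202 ppm in control tumours, 1.38-fold lower, with p = 0.00025 in the authors' deposited table and an adjusted p of 0.00504. Its paralog INSIG2, which is known not to depend on SREBP in the same way, had 89.4 ppm in laminin tumours and 70.3 ppm in control tumours. INSIG2 was 1.27-fold higher with p = 0.00845 in the authors' deposited table, and missed the threshold at an adjusted p of 0.0885. The difference between the paralogs was not tested, since only group values exist. The genes of the transcription factors themselves were near their control level. SREBF2 had 209 ppm in laminin tumours and 206 ppm in control tumours, with p = 0.876 in the authors' deposited table. SREBF1 had 70.1 ppm in laminin tumours and 77.6 ppm in control tumours, with p = 0.488 in the authors' deposited table. SCAP, the escort protein gene, had 70.8 ppm in laminin tumours and 73.6 ppm in control tumours, with p = 0.674 in the authors' deposited table. A p of this size does not show that these genes were alike in the groups, and SREBP processing is not read by RNA levels.

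The sterol transport genes were lower without passing. STARD4, a cytosolic sterol carrier and SREBP target, had 77.2 ppm in laminin tumours and 96.9 ppm in control tumours, with an adjusted p of 0.185. NPC1, which moves cholesterol out of lysosomes, had 42.1 ppm in laminin tumours and 51.5 ppm in control tumours, with an adjusted p of 0.393.

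Other genes of the pathway in the tumour cells were read from lists, beside the 2.45% of tested genes called lower and the 5.63% called higher. Of 18 tested SREBP targets of fatty acid synthesis and related steps, 4 fell and 1 rose, with a median log2 ratio of -0.29. The fallers included the desaturase gene SCD, at 526 ppm in laminin tumours and 720 ppm in control tumours, and LPIN1, a phosphatidate phosphatase, at 17.0 ppm against 25.4 ppm in controls. TMEM97, a membrane protein of the endoplasmic reticulum, fell too, at 78.4 ppm in laminin tumours against 109 ppm in control tumours. The riser was ACACB, the mitochondrial form of acetyl-CoA carboxylase, at 12.5 ppm in laminin tumours and 2.90 ppm in control tumours. Each of these 4 had an adjusted p of 0.0296 or less. ACAT1, the mitochondrial thiolase, fell as well, at 34.5 ppm in laminin tumours and 57.9 ppm in control tumours, with an adjusted p of 0.0465.

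Genes that move or store cholesterol went both ways in the tumour cells. Of 18 tested handling genes 3 rose and 1 fell. VLDLR, a lipoprotein receptor, had 10.2 ppm in laminin tumours and 4.39 ppm in control tumours. CYP27A1, a sterol hydroxylase that makes oxysterols, had 6.84 ppm against 3.62 ppm in controls, and GRAMD1A, a sterol transporter of the endoplasmic reticulum, 20.8 ppm against 13.0 ppm. NCEH1, a cholesteryl ester hydrolase, was the faller at 40.3 ppm in laminin tumours and 62.1 ppm in control tumours. Of 11 LXR and efflux genes 1 fell, SMPDL3A (5.99 ppm in laminin tumours, 8.79 ppm in controls), and none rose. The ratio of laminin over control was nevertheless above 1 for 9 of these 11 and below 1 for 2, with a median log2 ratio of 0.23. At an unadjusted p under 0.05 in the authors' test, 1 was higher and 1 was lower. Of 15 genes that use isoprenoids or dolichol 1 fell, COQ2 of coenzyme Q synthesis (21.1 ppm against 29.7 ppm), and none rose. None of 13 SREBP processing genes passed in either direction by the authors' test, and 0 had an unadjusted p under 0.05. Cell cycle genes moved with the sterol genes. Of 14 such genes 12 fell, with a median log2 ratio of -0.52 and a summed level of 1957 ppm in laminin tumours and 2727 ppm in control tumours. Their part in the sterol result was not tested.

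In the host, 5 cholesterol enzyme genes fell, and with them Insig1 and Srebf1, the gene of SREBP1. Of 25 tested members, 7 fell at an authors' q under 0.05 and none rose, beside 2.96% of 14339 tested mouse genes called lower and 0.579% called higher. The 7 were Acat2, Sqle, Lss, Cyp51, Nsdhl, Srebf1 and Insig1, between 1.97-fold and 4.74-fold lower in laminin tumours. Unadjusted, 11 of 25 were lower at a p under 0.05 and none higher, against 7.18% and 2.96% of all tested genes. The ratio was below 1 for 23 of 25, against 53.5% of all tested genes. The median log2 ratio was -0.98, beside -0.03 over all tested genes above 0 in both groups. Together the 18 enzymes summed to 373 ppm in laminin tumours and 693 ppm in control tumours, 1.86-fold lower. Coordinates below are those of the mouse table, for which the submitters' processing notes name mm10.

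**Figure D2:**
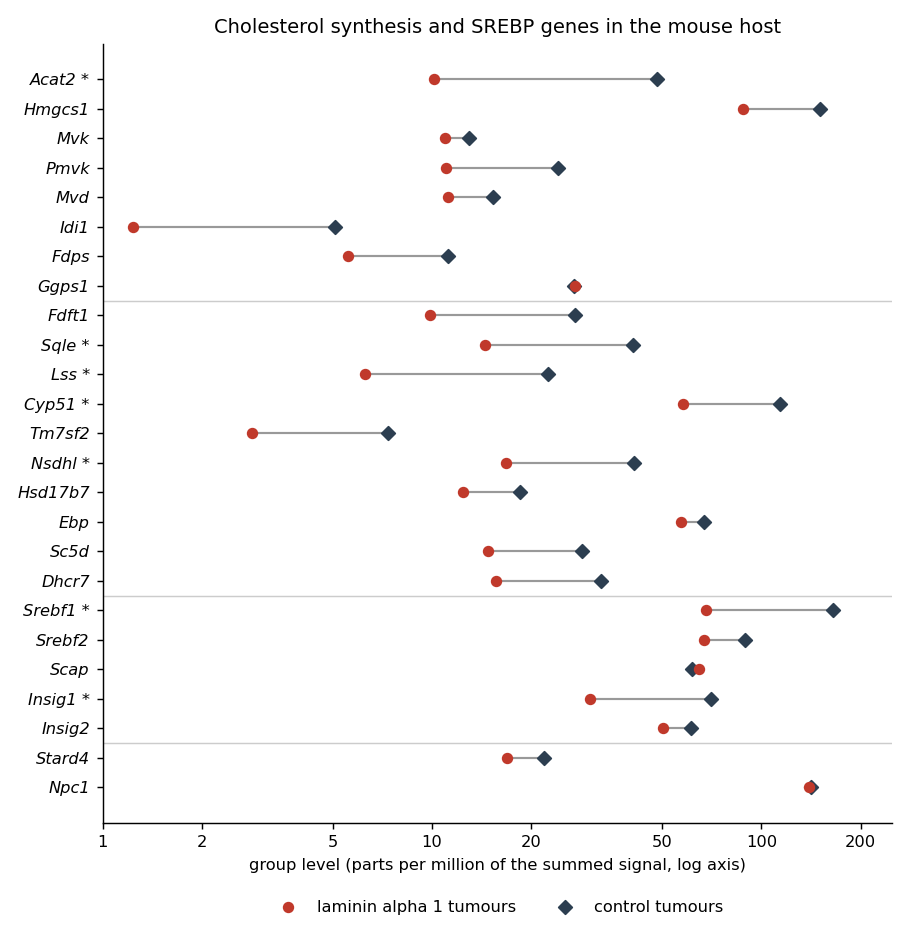
Levels of the 25 genes found in the mouse table, in ppm on a log axis, drawn as for the tumour cells, with an asterisk at the 7 genes past a q of 0.05. The red circles of laminin tumours lie left of the control diamonds for 23 genes, with Ggps1, Scap and Npc1 near their control level.

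The first step of the pathway carried the largest host change. Acat2 (chromosome 17, 12943042 to 12960725) had 10.2 ppm in laminin tumours and 48.1 ppm in control tumours, 4.74-fold lower, and the authors' deposited table gives p = 5e-05 and q = 0.00238. Its close copy Acat3 had 0.858 ppm in laminin tumours and 3.49 ppm in control tumours, and reads shared between the copies make both values uncertain. Hmgcs1 (chromosome 13, 119690462 to 119708077) had 87.8 ppm in laminin tumours and 150.4 ppm in control tumours. It was 1.71-fold lower and missed the threshold, and the authors' deposited table gives p = 0.0043 and q = 0.0970. The other genes of the mevalonate arm did not pass. Pmvk had 11.0 ppm in laminin tumours and 24.1 ppm in control tumours (q = 0.172, authors' deposited table). Idi1 had 1.24 ppm in laminin tumours and 5.08 ppm in control tumours (q = 0.521, authors' deposited table). The laminin value of Idi1 corresponds to only 4.87 to 12.0 reads over the 3 tumours, so this ratio is weakly determined. Fdps had 5.58 ppm against 11.2 ppm in controls, Mvd 11.2 ppm against 15.4 ppm and Mvk 10.9 ppm against 13.0 ppm. Ggps1, of the prenylation branch, had 27.2 ppm in laminin tumours and 27.1 ppm in control tumours.

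In the squalene and sterol arm all 10 host genes had lower values in laminin tumours, and 4 fell. Sqle (chromosome 15, 59315092 to 59331193) had 14.5 ppm in laminin tumours and 40.7 ppm in control tumours, 2.81-fold lower, and the authors' deposited table gives p = 0.00035 and q = 0.0135. Lss (chromosome 10, 76531627 to 76562226) had 6.26 ppm in laminin tumours and 22.4 ppm in control tumours, 3.59-fold lower. Its call was near the threshold, and the authors' deposited table gives p = 0.0017 and q = 0.0485. The call rests on 24.6 to 60.8 reads in laminin tumours and 145 to 148 in control tumours. The Lss locus overlaps that of 4930483K19Rik. In all, the loci of 5 of the 25 host genes overlap another gene with signal, which makes their values uncertain. Cyp51 (chromosome 5, 4080674 to 4104697) had 57.9 ppm in laminin tumours and 114 ppm in control tumours, 1.97-fold lower, and the authors' deposited table gives p = 0.0003 and q = 0.0118. Nsdhl (chromosome X, 72918521 to 72958528) had 16.8 ppm in laminin tumours and 41.0 ppm in control tumours, 2.44-fold lower, and the authors' deposited table gives p = 0.0008 and q = 0.0263.

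The remaining sterol enzymes of the host did not pass. Dhcr7 had 15.7 ppm in laminin tumours and 32.5 ppm in control tumours, and Sc5d 14.8 ppm against 28.5 ppm in controls, and the authors' deposited table gives q = 0.105 for Dhcr7 and q = 0.259 for Sc5d. Fdft1 had 9.90 ppm in laminin tumours and 27.1 ppm in control tumours, 2.74-fold lower, but p was 0.306 in the authors' deposited table. The Fdft1 locus overlaps that of the protease gene Ctsb, at 4624 ppm in laminin tumours and 4574 ppm in control tumours, and reads of overlapping genes cannot be separated here. Tm7sf2 had 2.84 ppm in laminin tumours and 7.35 ppm in control tumours, below its control level in the host where human TM7SF2 was above it, and neither passed. Hsd17b7 had 12.4 ppm in laminin tumours and 18.4 ppm in control tumours. Ebp, the isomerase whose human gene was called, had 57.0 ppm in laminin tumours and 66.9 ppm in control tumours (q = 0.948, authors' deposited table). A gene listed as Sc4mol (chromosome 8, 64718145 to 64733578), an older symbol of MSMO1 in the human RefSeq table, had 27.4 ppm in laminin tumours and 75.7 ppm in control tumours. It was 2.77-fold lower, and the authors' deposited table gives p = 5e-05 and q = 0.00238, and is not counted among the 25.

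Among the control genes of the host, Srebf1 and Insig1 fell. Srebf1 (chromosome 11, 60105013 to 60220604) had 67.8 ppm in laminin tumours and 165 ppm in control tumours, 2.44-fold lower, and the authors' deposited table gives p = 0.00045 and q = 0.0167. Its locus overlaps that of Rai1, which had 55.1 ppm in laminin tumours and 40.9 ppm in control tumours. Insig1 (chromosome 5, 28071412 to 28078662) had 30.3 ppm in laminin tumours and 70.1 ppm in control tumours, 2.31-fold lower, and the authors' deposited table gives p = 0.0001 and q = 0.00441. Srebf2 had 66.8 ppm in laminin tumours and 89.4 ppm in control tumours, and the authors' deposited table gives p = 0.0980 and q = 0.669. Scap had 64.7 ppm in laminin tumours and 61.4 ppm in control tumours, and Insig2 50.2 ppm against 61.3 ppm in controls, and neither passed (q = 0.996 for Scap and 0.899 for Insig2, authors' deposited table). The transport genes did not pass. Stard4 had 16.9 ppm in laminin tumours and 21.9 ppm in control tumours, and Npc1 139.6 ppm in laminin tumours and 141 ppm in control tumours.

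**Figure D3:**
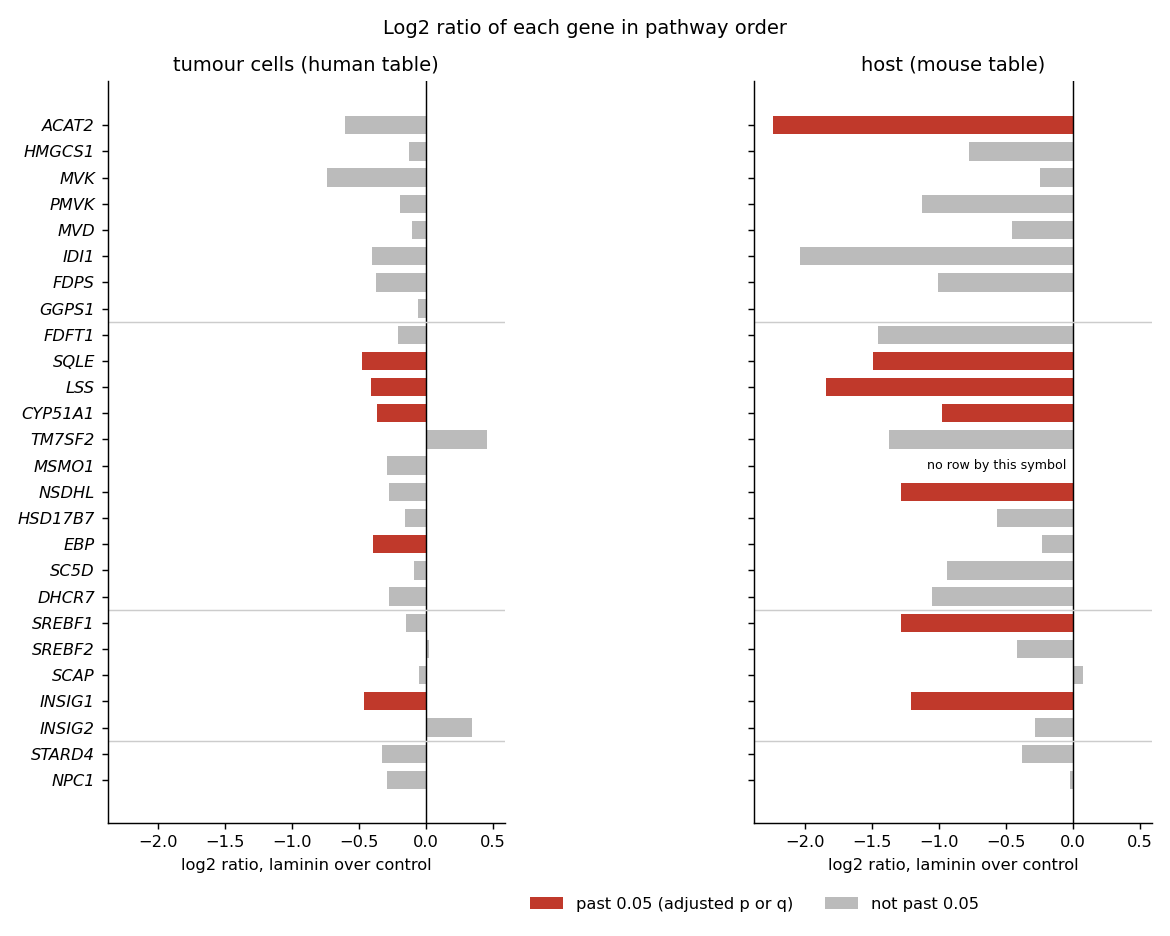
Log2 ratio of laminin over control for each gene, in pathway order, in the tumour cells (left) and the host (right) on the same horizontal scale, with genes past 0.05 in red and the others in grey. Tumour cell ratios lie between -0.74 and 0.45, and host ratios between -2.24 and 0.08.

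The 2 tables come from the same 6 tumours, so the values of a gene in tumour cells and host are set side by side and not treated as separate evidence. SQLE had a log2 ratio of -0.48 in the tumour cells and -1.49 in the host. LSS had -0.41 in the tumour cells and -1.84 in the host, and CYP51A1 -0.37 in the tumour cells and -0.98 in the host. INSIG1 had -0.46 in the tumour cells and -1.21 in the host. The calls parted for EBP (-0.40 in the tumour cells, called, and -0.23 in the host) and for SREBF1 (-0.15 in the tumour cells and -1.28 in the host, called). They parted also for ACAT2 (-0.60 in the tumour cells and -2.24 in the host, called) and NSDHL (-0.27 in the tumour cells and -1.29 in the host, called). GGPS1 and SCAP were within 0.08 of 0 on the log2 scale in both tables. Whether a ratio differed between tumour cells and host was not tested, since each table has only group values.

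**Figure D4:**
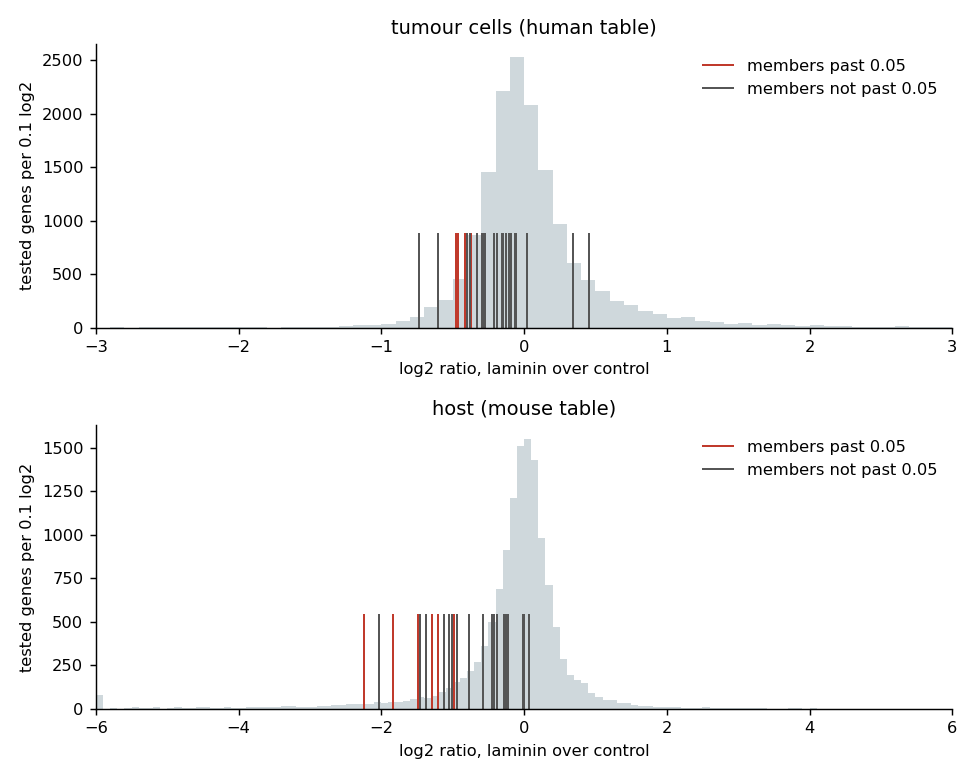
Distribution of the log2 ratio of laminin over control over all tested genes at 1 ppm or more (grey bars, genes per 0.1 log2), with each of the cholesterol and SREBP genes as a line, red where past 0.05. Most lines lie left of the peak in both tables, inside the body of the tumour cell distribution and in the left shoulder of the host distribution, whose outermost bars also hold the values beyond the axis.

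Within the distribution of all tested genes at 1 ppm or more, the called genes were not extreme. In the tumour cells 5.59% of these genes had a lower ratio than SQLE and 9.17% a lower one than CYP51A1. In the host 3.44% had a lower ratio than Acat2 and 8.82% a lower one than Cyp51.

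Fatty acid genes fell with the cholesterol genes in the host, and their median ratio was lower. Of 21 fatty acid SREBP targets 12 fell and none rose, with a median log2 ratio of -2.16 and a summed level of 1668 ppm in laminin tumours and 19838 ppm in control tumours. The desaturase gene Scd1, which did not pass (q = 0.794, authors' deposited table), held 207 ppm of the sum in laminin tumours and 12931 ppm of it in control tumours. Without Scd1 the sums were 1461 ppm in laminin tumours and 6907 ppm in control tumours, 4.73-fold lower in place of 11.9-fold. Fasn, fatty acid synthase, had 76.4 ppm in laminin tumours and 3323 ppm in control tumours. Thrsp, a nuclear protein of lipogenic tissues, had 3.86 ppm in laminin tumours and 348 ppm in control tumours. Acacb had 8.34 ppm in laminin tumours and 238 ppm in control tumours, and the elongase gene Elovl6 10.4 ppm against 249 ppm in controls. The authors' deposited table gives q = 0.00238 for each of these 4. Acat1, the mitochondrial thiolase, fell as well. It had 78.2 ppm in laminin tumours and 141 ppm in control tumours (q = 0.0419, authors' deposited table).

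The lists of cholesterol traffic showed few calls in the host. Of 21 tested handling genes 1 fell, the carboxylesterase gene Ces1d (2.39 ppm in laminin tumours, 129 ppm in control tumours), and none rose. By the authors' test, 0 genes passed among 8 tested LXR and efflux genes, 13 SREBP processing genes and 15 isoprenoid and dolichol genes. At an unadjusted p under 0.05, 1 of the LXR and efflux genes and 1 of the isoprenoid and dolichol genes were lower and 0 were higher, and 0 of the processing genes were in either direction. The median log2 ratio was 0.15 for LXR and efflux, 0.02 for SREBP processing and -0.12 for isoprenoid and dolichol genes.

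Markers of lipid-making and skin-associated host cells, and those of skeletal muscle, moved with the cholesterol genes. The 8 adipocyte markers were all lower and 6 fell, with a sum of 302 ppm in laminin tumours and 5739 ppm in control tumours, and none was at 0. Among the 10 sebaceous gland markers 4 fell, with a sum of 351 ppm in laminin tumours and 753 ppm in control tumours, and Awat1, Awat2, Scd3 and Mc5r were at 0 in laminin tumours. Soat1, in the sebaceous list and also widely expressed, had 235 ppm in laminin tumours and 225 ppm in control tumours and makes up most of the laminin sum. The 8 keratinocyte markers summed to 16.7 ppm in laminin tumours and 1618 ppm in control tumours, with 4 falling, Krt1 and Dsg1a at 0 in laminin tumours, and Flg at 0 in both groups. The 7 skeletal muscle markers summed to 657 ppm in laminin tumours and 4068 ppm in control tumours, with 5 falling and none at 0. None of the 6 fibroblast, 4 endothelial and 4 measured leukocyte markers passed by the authors' test, and 0 had an unadjusted p under 0.05. The fibroblast sum was 34159 ppm in laminin tumours and 36215 ppm in control tumours, the endothelial sum 955 ppm against 916 ppm in controls, and the leukocyte sum 1428 ppm against 1171 ppm in controls. The part of these cell types in the host cholesterol result was not tested.

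**Figure D5:**
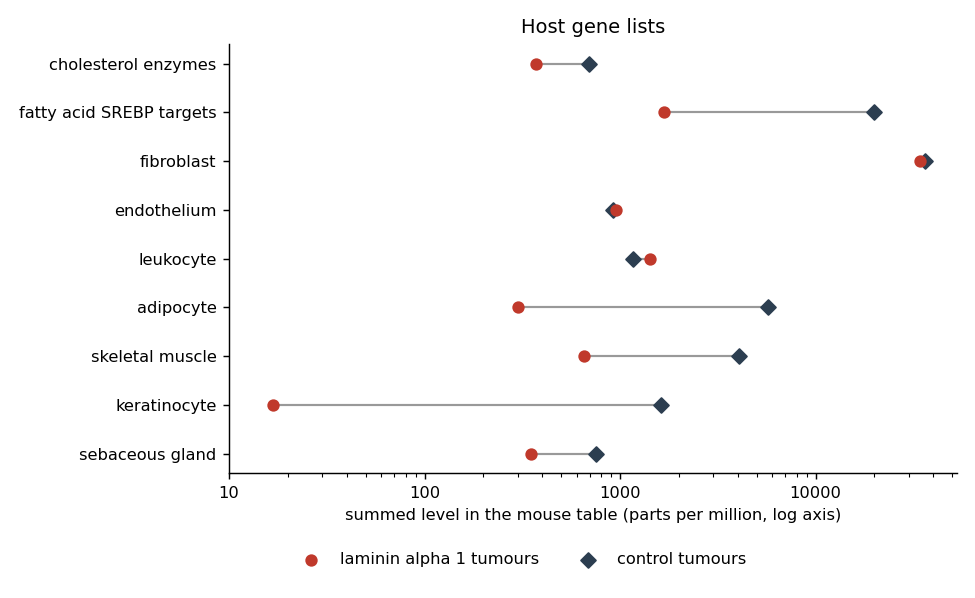
Summed level of host gene lists in the mouse table, in ppm on a log axis, with laminin alpha 1 tumours as red circles and control tumours as dark diamonds. The sum of the 18 cholesterol enzymes is 1.86-fold lower in laminin tumours and that of fatty acid targets 11.9-fold (4.73-fold without Scd1, which did not pass the test). The keratinocyte sum is 97.0-fold lower, the adipocyte sum 19.0-fold, the skeletal muscle sum 6.19-fold and the sebaceous gland sum 2.14-fold. Fibroblast and endothelial sums lie near their control level.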

How the data were processed

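RNA of 6 HT29 xenografts was sequenced as poly-A libraries without a stated strand step, per the labels' protocols. The submitters' processing notes name TopHat2, Cufflinks, hg38 and mm10. No source used here gives their versions, their options or the way species were separated. Per the file headers, the authors deposited 1 signal value per group and gene on an unstated scale, a log2 ratio of laminin over control and a p-value. The mouse table also holds a q-value deposited by the authors. In units of 1000000, the signal summed to 891 (laminin) and 893 (control) in the human table and to 951 (laminin) and 969 (control) in the mouse table. Levels are values divided by the mean of both sums, times 1000000. Genes at the most frequent single mouse control value had loci from 83 to 911588 bases long, so values are not scaled for length. The human loci do not match hg38: 1 of 26 members, and 2.53% of 30567 genes, started within 1000 bases of RefSeq GRCh38, so no human coordinates are given. Mouse starts were counted from 1, and 1 shifted mouse line was left out. For genes with several lines the line with the largest summed signal was kept.

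The test is the authors' own. The human p-values received a Benjamini-Hochberg adjustment over 25838 tested genes, and mouse calls use the deposited q-value. The adjustment was tested on simulated data. Nothing shows that the 3 tumours of a group are more than separate samples beyond the series' design text, which calls them independent. Members and lists were chosen with earlier results of these data known. Every member was named, and from each list at most 4 called genes with the largest ratios. Promoter and protein sequences, planned for a few members, were not used here. Some genes of the pathway are not reported here. Python 3.11.15, pandas 2.3.3, NumPy 2.4.6 and SciPy 1.17.1 were used.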

Additional observations from a re-analysis of the deposited data

How the results depend on the processing

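Calls in both tables depended on the threshold. In the tumour cells 2 genes (SQLE and INSIG1) passed at a threshold of 0.01 in place of the 5 at 0.05, 1 (SQLE) passed by the Benjamini-Yekutieli adjustment, and 0 were called with at least a 1.5-fold difference, where 12 had been lower at an unadjusted p under 0.05 in the authors' test. At a threshold of 0.10 there were 7 calls, 6 lower (MVK with the 5) and 1 higher (INSIG2). MVK joined the 5, making 6, when p-values were adjusted over genes at 1 or at 5 ppm or more. In the host 2 genes (Acat2 and Insig1) passed at 0.01 and 2 by the Benjamini-Yekutieli adjustment, in place of 7, all 7 differed by at least 1.5-fold, and 8 (with Hmgcs1), all lower, passed at 0.10. With Sc4mol counted as Msmo1, an alternative chosen after seeing the data like the sums without Scd1 or CD68, 8 passed. The host median log2 ratio was -0.86 over members at 10 ppm or more, beside -0.98 over all. In all, 21 alternatives for the counts and medians stayed within 1.5 times the count or 0.1 of the median. All 57 for single named genes (1 ppm added, centring on the gene median, or upper quartile scaling) kept their direction. That outcome was fixed in advance and is no check. Adding 1 ppm to both levels cannot change a direction. Centring and scaling shift all log2 ratios of a table equally, by less than the ratio of any of these genes. Leaving out a tumour was not possible, because values are per group. No paired analysis was possible because the tables hold 1 value per group. Low host levels limit precision, since 1 laminin read is worth up to 0.254 ppm.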
